A study of Mus musculus with 2 samples.

Results

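MicroRNAs of blood cells are cut from longer RNAs, and in the mouse many of these precursors are made by non-coding host genes. This set holds 8 microRNA host genes, of 10944 gene names with annotated long non-coding transcripts. They were chosen by their symbols: Mir142hg, Mir17hg, Mir155hg, Mir22hg, Mir99ahg, Mir133a-1hg, Mir670hg and Dleu2. They are represented by 45 annotated transcripts and by 8 assembled transcripts that carry the same gene names. The values come from ribosomal RNA-depleted total RNA of mouse spleen, with 1 library of each group. The CIA group carried collagen-induced arthritis, a joint inflammation raised by immunizing mice against type II collagen, and the healthy group was untreated. Both titles name day 40, but the label on treatment puts sacrifice of the CIA mice at day 42 after the first immunization. For strain, age, sex and the number of mice per library the labels give nothing. With 1 library per group no value below has a replicate error and no test was made, so each difference is one between 2 libraries. The unit is FPKM, fragments scaled to transcript length and library size, and the number of fragments behind each value is unknown. In spleen RNA, fewer cells of a type and less RNA per cell cannot be told apart. The coding genes that mark spleen cell types were not used here, so the labelled tissue was not checked against them.

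A microRNA host is transcribed as a long primary RNA, in which the microRNA lies in a hairpin. The nuclease Drosha cuts the hairpin out, Dicer trims it, and a mature strand then guides Argonaute to messenger RNAs through its seed, the stretch from base 2 to base 8. Mir142hg carries miR-142, which is abundant across blood lineages. Mir17hg carries the miR-17 cluster, active in proliferating lymphocytes. Mir155hg carries miR-155, which is induced when lymphocytes and macrophages are activated. Dleu2 carries miR-15a and miR-16, which restrain the cell cycle and Bcl2. Mir22hg carries miR-22, and Mir99ahg carries miR-99a, let-7c and miR-125b. Mir670hg carries miR-670 and miR-129. Mir133a-1hg carries microRNAs best known from muscle, so the label of blood cell hosts does not cover every gene of the set. The libraries measured long RNA, and the mature microRNAs were not measured.

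The mature sequences show what the main hosts encode. GENCODE M21 places 19 microRNA genes inside the 8 hosts on the same strand, and RefSeq mature sequences (build GRCm38.p6) are used here for 16 of them. The seeds are in capitals. Within the Mir17hg cluster, miR-17 and miR-20a share one seed and the miR-19 pair shares another, while miR-18a and miR-92a have seeds of their own. In Dleu2 the seed of miR-15a equals that of miR-16.
miR-17-5p: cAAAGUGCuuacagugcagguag
miR-20a-5p: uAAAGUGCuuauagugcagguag
miR-18a-5p: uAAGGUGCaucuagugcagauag
miR-19a-3p: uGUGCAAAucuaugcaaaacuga
miR-19b-3p: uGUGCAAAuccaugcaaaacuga
miR-92a-3p: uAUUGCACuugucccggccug
miR-15a-5p: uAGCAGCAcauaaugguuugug
miR-16-5p: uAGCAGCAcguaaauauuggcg
miR-142a-5p: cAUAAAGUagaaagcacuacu
miR-142a-3p: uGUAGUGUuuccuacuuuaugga
miR-155-5p: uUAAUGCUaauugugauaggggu
miR-22-3p: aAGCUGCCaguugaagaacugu
miR-99a-5p: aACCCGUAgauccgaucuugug

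The position of the hairpin differs among the hosts. In Mir17hg all 6 hairpins lie in exon sequence of the annotated transcript, and in Mir22hg and Mir155hg the hairpin is exonic in both annotated transcripts. In Mir142hg, Mir133a-1hg and Mir99ahg the hairpins lie in introns, so the spliced RNA that is counted there no longer contains them. In Dleu2 both hairpins are intronic in the 8 annotated transcripts that span them.

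Summed over their transcripts, Dleu2 and Mir142hg stood far above the other hosts in both libraries. A locus sum, the FPKM added over the annotated and assembled transcripts of a gene name, for Dleu2 was 53.7 FPKM with CIA and 71.2 FPKM in the healthy library. The locus sum of Mir142hg was 42.1 FPKM with CIA and 46.9 FPKM in the healthy library. Of that sum, 100% with CIA and 69.5% in the healthy library came from an assembled transcript called on the opposite strand. Whether that transcript is RNA of the host is not settled. By locus sum Dleu2 ranked 10 and 7, and Mir142hg 21 and 14, in the CIA and the healthy library. The ranks are among the 2931 gene names that reached 0.5 FPKM in either library. Only 470 of these have an assembled transcript in their sum, while 5 of the 8 hosts do, so the ranks compare unlike sums. Pairs of values joined by "against" give the CIA library first throughout. The other 6 hosts stood between 0.645 and 8.88 FPKM. In the healthy library they ran from Mir22hg (4.68 FPKM) through Mir155hg, Mir670hg, Mir133a-1hg and Mir17hg to Mir99ahg (0.645 FPKM). In the CIA library the order was the same except that Mir17hg moved from place 7 to place 3 of the 8, and that Mir670hg and Mir133a-1hg changed places. Whether neighbours in this order differ cannot be judged, since no spread was measured.

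**Figure D1:**
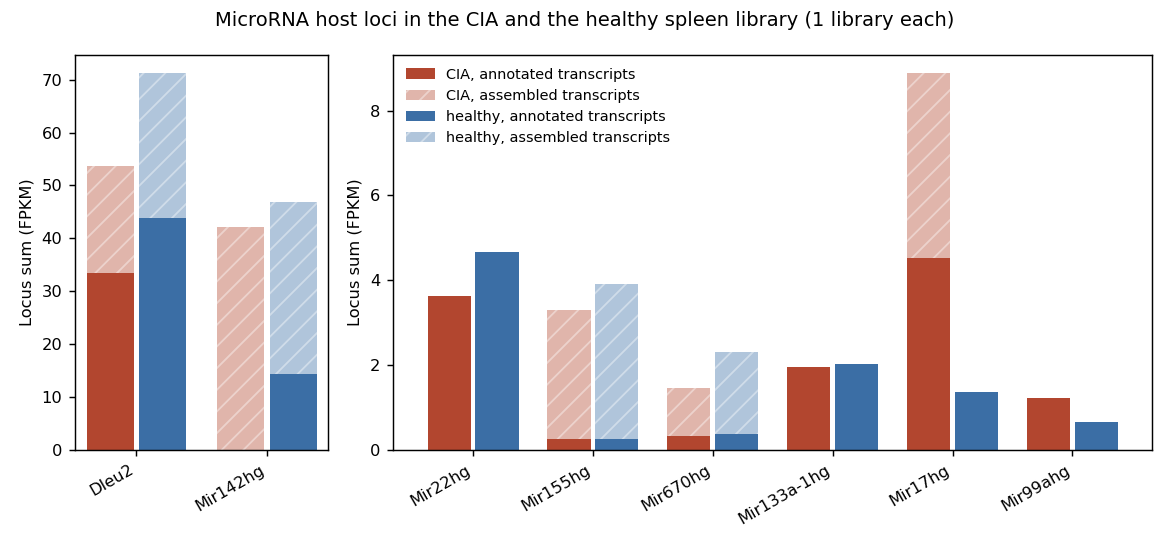
Locus sums in FPKM (y axis, from 0; separate scales for the left and right panels) of the 8 host genes in the CIA library (red) and the healthy library (blue), 1 library each. Solid parts are annotated and hatched parts assembled transcripts; Mir17hg is 8.88 against 1.36 FPKM, and the Mir142hg bar of the CIA library is wholly assembled.

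All 8 hosts reached the filter of 0.5 FPKM as locus sums, and 6 of 8 did so on annotated transcripts alone. Ratios are given as log2((CIA FPKM + 0.1)/(healthy FPKM + 0.1)), in which the added 0.1 understates the ratio of low genes. Of the 8 hosts, 1 was 2-fold or more higher with CIA, Mir17hg, against 13.5% of the 2931 gene names. None of the 8 was 2-fold or more lower, against 4.47% of the gene names. The median log2 ratio of the 8 hosts was -0.20 and that of all gene names 0.29, a general offset of 1.22-fold toward the CIA library. Below this offset lay 6 of the 8 hosts, and the same 6 had log2 ratios under 0. Those 6 values ran from -0.63 for Mir670hg to -0.06 for Mir133a-1hg, all within 2-fold. By construction, as many gene names lie below the median of all gene names as above it. The share of all gene names with a log2 ratio under 0 is not given, so the count of 6 is not read as a trait of the hosts.

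**Figure D2:**
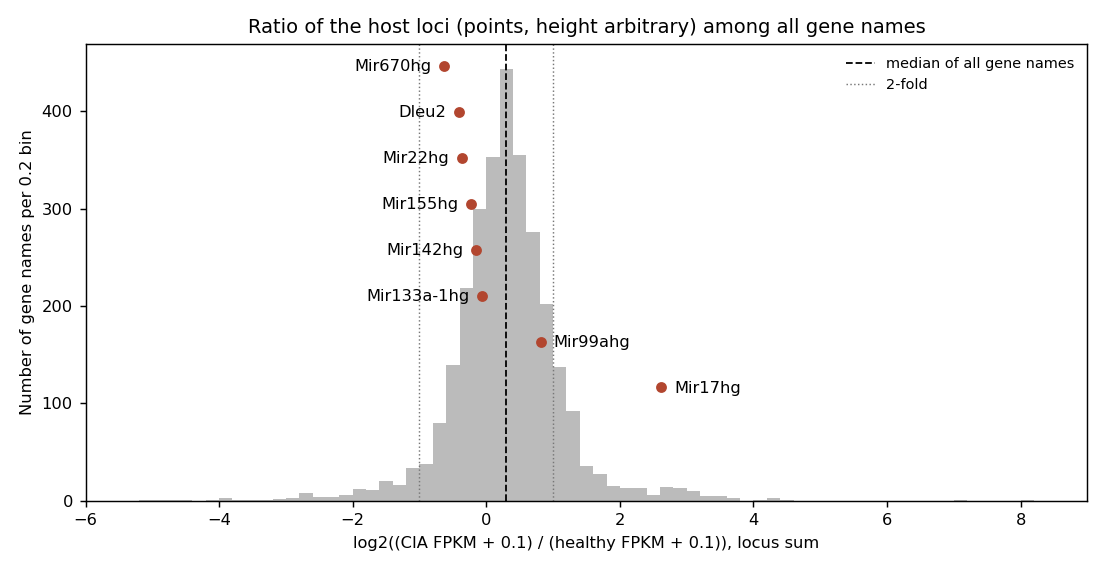
Log2 ratio of the locus sums (x axis, CIA over healthy with 0.1 FPKM added) for 2931 gene names (grey, number per bin on the y axis) and the 8 hosts (red points, at arbitrary height). Mir17hg at 2.62 is the only host beyond a 2-fold line, and 6 hosts lie left of the dashed median at 0.29.

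Across the processing alternatives, 47 in all for the 8 ratios, each ratio stayed on its side of the 2-fold line. Mir142hg on annotated transcripts alone is not among the 47, since its annotated value with CIA is 0 and no ratio is given. In the count of hosts it crossed the line there, as the 1 host 2-fold or more lower. The sign turned in 4 of the 47, for Mir142hg and Mir155hg only, and those values are given with these genes. Subtracting the general offset left Mir17hg at 2.33 and took Mir670hg to -0.92.

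**Figure D3:**
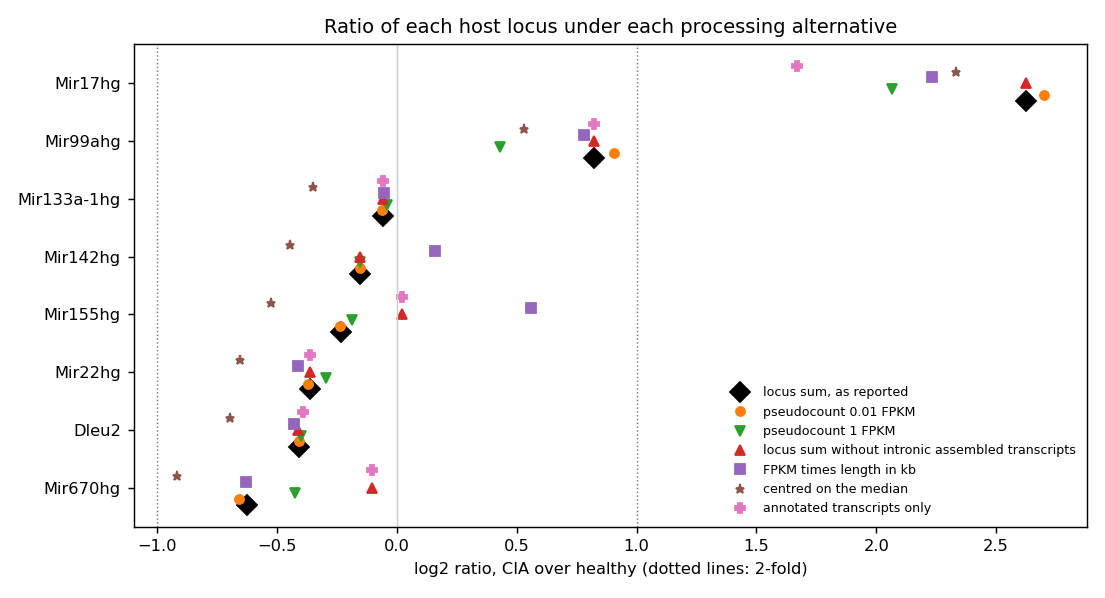
Log2 ratio (x axis) of each host locus (y axis) as reported (black diamonds) and under each alternative (coloured symbols, named in the key). Mir17hg runs from 1.67 to 2.70, and Mir155hg, from -0.53 to 0.56, falls on both sides of 0.

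Mir17hg was the host with the largest difference, higher with CIA. Its only annotated transcript, ENSMUST00000134140 (GRCm38 chromosome 14, 115042879 to 115046727, plus strand, 2 exons), stood at 4.53 FPKM with CIA and 1.36 FPKM in the healthy library. An assembled transcript of the locus, MSTRG.12826.7, stood at 4.35 FPKM with CIA and was listed at 0 in the healthy library. Both transcripts were thus higher with CIA. The locus sum was 8.88 against 1.36 FPKM, a log2 ratio of 2.62 that exceeded those of 98.1% of the gene names past the filter. Only 470 of those 2931 gene names have an assembled transcript in their sum. On the annotated transcript alone the log2 ratio was 1.67, so the size of the difference, though not its direction, rests in part on the assembled transcript. In the authors' deposited table the annotated transcript had a p of 0.0176 and a q of 0.266 and was marked significant, while the authors' deposited table lists the assembled one with a p of 1. It was the only one of the 53 transcripts of the 8 hosts with a p under 0.05 in the authors' deposited table, where the next lowest p, of MSTRG.21758.1 in Mir670hg, was 0.190. Such p-values rest on a single library per group and contain no variation among mice.

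The assembled Mir17hg transcript starts on the first base of the hairpin of miR-92a, the last of the cluster (symbol Mir92-1, chr14:115044427-115044506, plus strand). The hairpin is printed to show that edge, with the mature miR-92a-3p strand in capitals.
Mir92-1: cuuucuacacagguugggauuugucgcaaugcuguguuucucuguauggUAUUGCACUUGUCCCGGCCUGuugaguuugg
From that base the transcript runs to 208 bases short of the host's annotated end and lies wholly inside the annotated exon 2, with 501 bases spliced out. Its exon borders are not given in the table. The other 5 hairpins of the cluster lie upstream of it, so the listing of MSTRG.12826.7 concerns RNA from miR-92a onward. Among assembled transcripts of the same overlap class with at least 1 FPKM in either library, 21 of 445 (4.72%) were listed at 0 in one library alone.

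Mir142hg gave opposite directions in its 2 transcripts. The annotated transcript ENSMUST00000123700 (chromosome 11, 87755577 to 87757270, plus strand) was listed at 0 with CIA and at 14.3 FPKM in the healthy library. The assembled transcript MSTRG.6625.1 (87757267 to 87758020, 1 exon, called on the minus strand) stood at 42.1 FPKM with CIA and 32.6 FPKM in the healthy library (log2 ratio 0.37). The locus sum of 42.1 against 46.9 FPKM had a log2 ratio of -0.16, which turned to 0.16 when each FPKM was multiplied by transcript length. The assembled transcript made up 100% of the sum with CIA and 69.5% in the healthy library.

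MSTRG.6625.1 overlaps the annotated exon 2 by 4 bases, and 2520 bases separate it from the next coding gene, Tspoap1, on the plus strand. No strand setting of the libraries is known from the labels, so reads of a longer plus-strand Mir142hg RNA and of an antisense RNA cannot be told apart there. The annotated transcript has exons of 37 and 232 bases, and its intron of 1425 bases holds the miR-142 hairpin, which ends 111 bases before exon 2. The hairpin is printed with both mature strands in capitals (chr11:87756864-87756927, plus strand), and the spliced transcript follows, from GENCODE M21, with exon 1 in capitals, to show that the RNA with the value of 0 is the product left after the hairpin's intron is removed. Neither of the 2 mature sequences occurs in it.
Mir142: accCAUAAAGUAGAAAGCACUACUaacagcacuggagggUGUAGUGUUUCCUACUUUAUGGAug
ENSMUST00000123700: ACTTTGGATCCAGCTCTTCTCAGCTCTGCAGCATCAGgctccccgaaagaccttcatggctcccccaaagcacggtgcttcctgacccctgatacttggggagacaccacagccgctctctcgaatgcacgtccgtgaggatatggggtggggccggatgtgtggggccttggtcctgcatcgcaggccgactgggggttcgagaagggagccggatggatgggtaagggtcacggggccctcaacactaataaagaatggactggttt

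A value of 0 in one library alone was uncommon at this level, among assembled as among annotated transcripts. Of the 642 assembled transcripts that reached 10 FPKM in either library, 24 (3.74%) were listed at 0 in one of them. Of the 108 annotated transcripts that reached 10 FPKM in either library, 1 was listed at 0 in one of them, and that was Mir142hg. Its length of 269 bases is short. Among annotated transcripts that reached 1 FPKM in either library, 3 of 37 under 300 bases (8.11%) were listed at 0 in a single library. Mir142hg is itself 1 of these 3. For longer annotated transcripts the count was 34 of 2005 (1.70%). The authors' deposited table lists the Mir142hg transcript with a p of 1. The part of transcript length in this value was not tested.

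**Figure D4:**
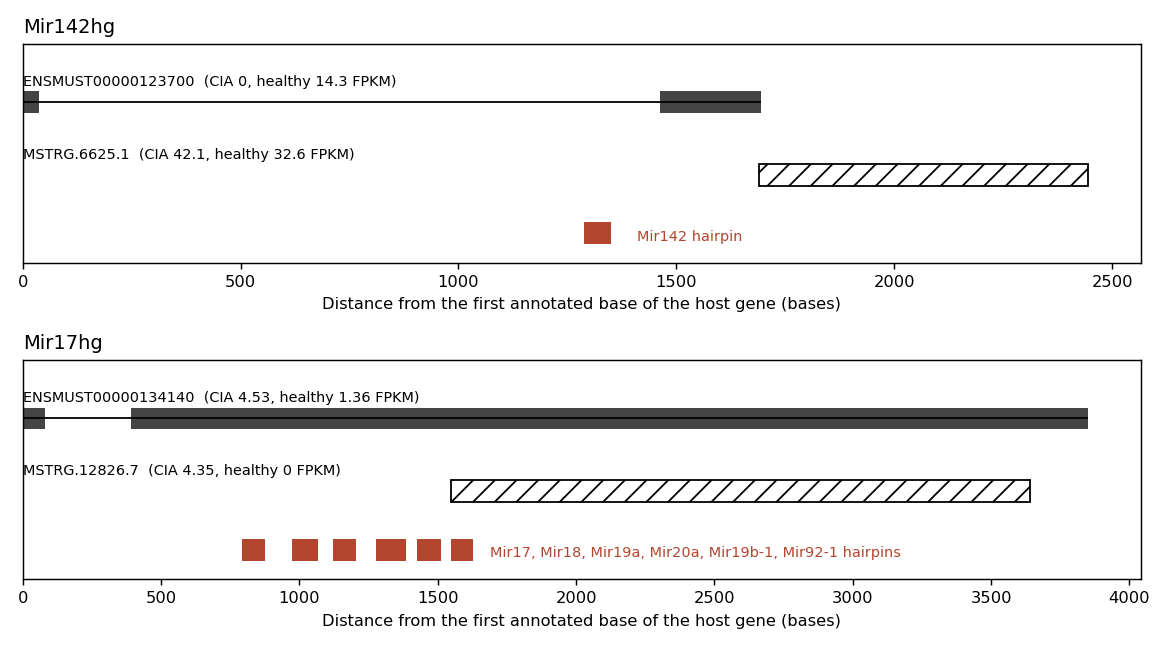
Transcripts of Mir142hg (top) and Mir17hg (bottom) against the distance in bases from the first annotated base of each gene, with exons of annotated transcripts as dark blocks, spans of assembled transcripts hatched, and hairpins in red. The FPKM of both libraries stand above each transcript; the Mir142 hairpin lies between the exons, and MSTRG.12826.7 begins at the last hairpin of the Mir17hg cluster.

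Mir155hg, the host of the activation-induced miR-155, was low as spliced RNA in both libraries. Its transcript ENSMUST00000180991 (chromosome 16, 84713023 to 84715245), which contains the hairpin in an exon, stood at 0.245 FPKM with CIA and 0.240 FPKM in the healthy library. The longer ENSMUST00000185662, which starts at 84703167, was listed at 0 in both. Most of the locus sum of 3.30 against 3.90 FPKM came from assembled single-exon transcripts in the intron, 92.6% with CIA and 93.9% in the healthy library. These differed in direction. MSTRG.15391.1, of 4891 bases in the upstream part of the intron, stood at 2.55 against 1.51 FPKM, and MSTRG.15392.1, of 526 bases further downstream, at 0.508 against 2.15 FPKM. The locus log2 ratio of -0.23 therefore depended on the weighting. It was 0.56 when FPKM was multiplied by length and 0.02 without the intronic transcripts, so no direction can be given for Mir155hg.

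Dleu2 was the most abundant host, with lower values for most of its transcripts in the CIA library. Of the 14 annotated transcripts above 0 in either library, 10 were lower and 4 higher with CIA, and all 3 assembled ones were lower. Many of them share exons, so these are not independent counts. The share of all transcripts that were lower with CIA is not given. The annotated sum was 33.3 against 43.8 FPKM and the assembled sum 20.3 against 27.4 FPKM. Both parts of the locus thus gave a ratio close to the log2 ratio of the whole, -0.41, which was within 2-fold and ranged from -0.70 to -0.39 over the alternatives. Genes for Trim13 and Kcnrg overlap Dleu2 on the opposite strand, and their reads cannot be told apart from those of Dleu2 where exons overlap.

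The Dleu2 transcript with the highest value was ENSMUST00000193208 (chromosome 14, 61627795 to 61631892, minus strand), a single exon of 4098 bases, at 18.9 FPKM with CIA and 23.9 FPKM in the healthy library. It made up 35.2% and 33.5% of the locus sum. Its 5′ end lies inside the miR-16 hairpin, where it covers the last 13 bases and begins with 1 base between it and the end of the miR-16-1-3p strand. The hairpin (symbol Mir16-1, chr14:61631880-61631972, minus strand) is printed with that strand in capitals, so that the transcript begins at the second lower-case base after the capitals.
Mir16-1: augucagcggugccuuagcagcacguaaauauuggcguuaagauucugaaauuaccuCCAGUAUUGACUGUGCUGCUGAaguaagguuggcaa
The 8 annotated transcripts that span both hairpins, of which 7 were above 0 in either library, summed to 7.03 against 8.86 FPKM (log2 ratio -0.33), with 4 of the 7 higher and 3 lower with CIA. That direction rests on ENSMUST00000183066, listed at 0 with CIA. Without it, an alternative chosen after seeing the data, the sum was 7.03 against 6.53 FPKM (log2 ratio 0.10). The 7 annotated transcripts that do not span them summed to 26.3 against 35.0 FPKM (log2 ratio -0.41), and each of the 7 was lower with CIA. Most of that sum came from ENSMUST00000193208. Among the 7, ENSMUST00000182286 (0.000723 against 0.000897 FPKM) and ENSMUST00000182756 (0 against 0.018 FPKM) were so near 0 that their direction means little. Whether the groups differ was not tested.

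Single Dleu2 transcripts departed from the locus. ENSMUST00000183066, with 6 exons, was listed at 0 with CIA and at 2.33 FPKM in the healthy library, and ENSMUST00000180377, with 7 exons, at 0.283 FPKM with CIA and 0 in the healthy library. ENSMUST00000182537, of 318 bases, stood at 1.61 against 3.98 FPKM (log2 ratio -1.26). In the opposite direction ENSMUST00000182768 stood at 1.63 against 1.21 FPKM, and ENSMUST00000183079 at 4.21 against 3.74 FPKM. These isoforms share exons, and how reads were divided among them is the assembler's estimate. The intronic assembled transcripts MSTRG.12322.1 and MSTRG.12324.1 stood at 8.87 against 13.7 and at 9.50 against 10.6 FPKM.

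**Figure D5:**
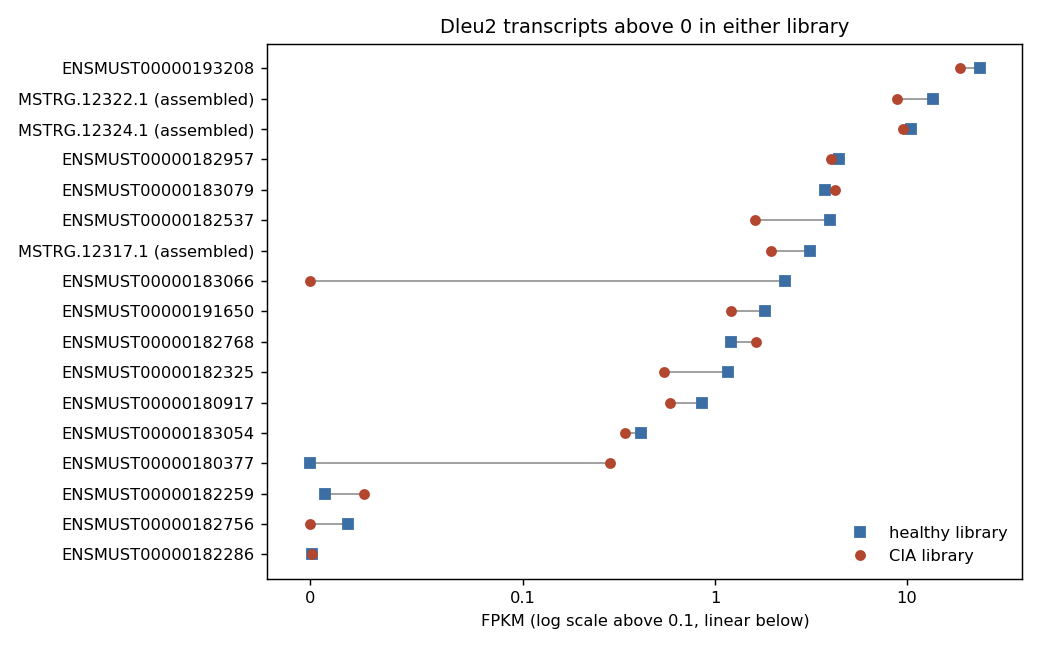
FPKM (x axis, log scale above 0.1 and linear below) of each Dleu2 transcript above 0 in either library (y axis), in the CIA library (red circles) and the healthy library (blue squares). Most red points lie left of the blue ones, ENSMUST00000193208 leads at 18.9 against 23.9 FPKM, and ENSMUST00000183066, ENSMUST00000182756 and ENSMUST00000180377 are at 0 in one library.

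Over all hosts, 14 single annotated transcripts passed the filter. Of these 1 was 2-fold or more higher with CIA (Mir17hg), against 15.7% of 3068 annotated transcripts, and 3 were 2-fold or more lower (1 of Mir142hg and 2 of Dleu2), against 6.13%. Of the 8 assembled transcripts, 1 was higher (MSTRG.12826.7 of Mir17hg), against 17.2% of 16773 assembled transcripts, and 1 lower (MSTRG.15392.1 of Mir155hg), against 11.1%. A transcript listed at 0 in one library is counted here through the added 0.1 FPKM, and no fold is given for it.

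Mir22hg had a lower value in the CIA library in both of its transcripts. ENSMUST00000149940 (chromosome 11, 75461539 to 75466676, plus strand, 3 exons) stood at 2.64 against 3.59 FPKM and ENSMUST00000134345 at 0.973 against 1.09 FPKM. The locus sum was 3.61 against 4.68 FPKM (log2 ratio -0.36), within 2-fold. An assembled transcript inside the first intron of Mir22hg, MSTRG.6197.1, which the table names after the overlapping coding gene Tlcd2, stood at 2.55 against 3.61 FPKM, also lower with CIA. Tlcd2 starts inside the first exon of Mir22hg on the same strand, and reads there may belong to either gene.

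Mir99ahg was the only host besides Mir17hg with a log2 ratio above 0, at a low level. Its locus (chromosome 16, 77236317 to 77691403, plus strand) summed to 1.22 FPKM with CIA and 0.645 FPKM in the healthy library (log2 ratio 0.82), within 2-fold. Of its 16 annotated transcripts, 10 were above 0 in either library, 7 of them higher and 3 lower with CIA, and none exceeded 0.253 FPKM. The highest was ENSMUST00000182601, at 0.253 with CIA and 0.0152 FPKM in the healthy library. The 3 transcripts that span the miR-99a and let-7c hairpins summed to 0.0956 FPKM with CIA and were listed at 0 in the healthy library, so nearly all the signal came from transcripts that do not span those hairpins.

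Mir133a-1hg and Mir670hg did not reach a 2-fold difference either. The single transcript of Mir133a-1hg, ENSMUST00000179771 (chromosome 18, 10781723 to 10785883, minus strand), stood at 1.94 against 2.02 FPKM (log2 ratio -0.06). It lies antisense inside the coding gene Mib1, a ubiquitin ligase of Notch signalling. Mir670hg (chromosome 2, 94160636 to 94264918, minus strand) summed to 1.45 FPKM with CIA and 2.29 FPKM in the healthy library (log2 ratio -0.63). Of that sum 77.7% with CIA and 84.5% in the healthy library came from the intronic MSTRG.21758.1, at 1.13 against 1.94 FPKM. On the 7 annotated transcripts alone the sum was 0.324 against 0.356 FPKM (log2 ratio -0.11). The annotated signal came almost wholly from ENSMUST00000209947, which does not reach the miR-670 hairpin.

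Other microRNA hosts were taken as the gene names with an annotated microRNA gene inside the transcript span on the same strand, plus hosts known by symbol. Of 88 such genes, 38 reached 0.5 FPKM in either library. Their median log2 ratio was 0.31, next to the 0.29 of all gene names, while the median of the 8 hosts above was -0.20. Of the 38, 4 were 2-fold or more higher with CIA and 2 lower, against 13.5% and 4.47% of all gene names. Many of the microRNA genes are predictions with no miR name. Restricting to hosts with a named one, a choice made after the values were seen, left 62 hosts, of which 29 passed. Their median was 0.32, next to the 0.29 of all gene names. Of these 29, 22 were higher and 7 lower with CIA, but the same split over all gene names is not given. The split is therefore not read as a trait of microRNA hosts.

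By the rule of largest ratio, the hosts named from this list include those of lineage microRNAs. F630028O10Rik, the host of miR-223, a microRNA of granulocytes and monocytes, stood at 15.8 FPKM with CIA and 25.5 FPKM in the healthy library (log2 ratio -0.68). Gm4258, a host of miR-181a and miR-181b, which tune lymphocyte receptor signalling, stood at 10.7 against 6.68 FPKM (log2 ratio 0.67). Another gene of the list that holds the same miR-181b gene had a log2 ratio of 0.08. As locus sums, neither F630028O10Rik nor Gm4258 was 2-fold apart. The annotated transcripts of Gm4258 alone stood at 3.64 against 1.77 FPKM, which just reaches the 2-fold rule. Gm17494, which holds Mir760, stood at 8.48 against 25.5 FPKM (log2 ratio -1.58), and Nespas and Gm20632 had log2 ratios of -0.42 and -0.31. At the upper end, Gm26551 stood at 4.45 against 1.59 FPKM (log2 ratio 1.43), F630206G17Rik at 2.35 against 1.05 FPKM (1.09) and 9330111N05Rik at 13.6 against 7.34 FPKM (0.88). The microRNA genes in these last 3 are unnamed predictions, as is the one in Gm20632. Nespas was taken by its symbol and has no annotated microRNA gene in its span on the same strand. In F630206G17Rik the annotated transcripts alone gave 0 against 0.281 FPKM, and in 9330111N05Rik 0.0102 against 0.182 FPKM, opposite in direction to their locus sums.

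As stand-ins for cell composition, only long non-coding genes within 50 kb of coding marker genes were at hand, with the hosts themselves left out. Whether such neighbours follow the number of cells was not tested. Near T cell genes, 21 long non-coding genes summed to 92.0 FPKM with CIA and 47.7 FPKM in the healthy library. Near B cell genes 13 summed to 90.5 against 57.2 FPKM. These sums stand beside the general offset of 1.22-fold toward the CIA library. Near myeloid genes only 3 were found, near 2 of 7 markers, with sums of 1.41 against 2.47 FPKM. The lower myeloid sum with CIA rests on 1 gene, Gm11505, which lies antisense to the marker gene Mpo. It was listed at 0 with CIA and at 1.62 FPKM in the healthy library, so no myeloid direction can be given. Near erythroid genes 3 were found, with 5.38 against 4.13 FPKM. Near proliferation genes 7 summed to 66.1 against 67.3 FPKM, near 3 of 5 markers. Listed at 0 in both libraries were 2 of the B cell, 1 of the myeloid and 1 of the proliferation neighbours. Gm26551 is also one of the T cell neighbours. The part of cell composition in the values of the hosts was not tested.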

How the data were processed

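Total RNA of spleen cells was depleted of ribosomal RNA, per the labels' protocols, in 1 CIA and 1 healthy library. Per the submitters' processing notes StringTie was used; for its version, the aligner, the strand setting and the test no source is at hand. Per transcript, the authors deposited FPKM values in 2 tables, annotated (15172 transcripts) and assembled (16840), with 0.0001 in place of 0, which was read as 0. Columns of ratio (fold), log2 ratio, p-value and q-value are also the authors', per the file headers. Of 32012 transcripts, 32012 had the deposited ratio within a relative tolerance of 0.0001; for 2 with damaged cells, none of them a host, the value was assigned by that ratio. Identifiers, coordinates and strands of 15172 annotated transcripts matched GENCODE M21 (GRCm38).

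FPKM was summed per gene name. Log2 ratios used a pseudocount of 0.1 FPKM, a filter of 0.5 FPKM in either library and a 2-fold size rule in place of a test. Counting by this rule was checked on simulated data with planted 4-fold changes. The noise there was assumed, so the check says nothing about the noise between the 2 libraries. Depth is unknown from FPKM, so no interval is given. The members and lists were chosen with earlier results of these data known. Named were all hosts with their transcripts above 0, the 4 highest and 4 lowest ratios among other hosts above 0 in both libraries that reached 1 FPKM in either, and neighbours that reached 1 FPKM. No gene was named for likeness of pattern, which 2 libraries cannot define. Alternatives were pseudocounts of 0.01 and 1 FPKM, annotated transcripts only, sums without intronic transcripts, FPKM times length, centring, no filter or 1 FPKM, a 4-fold rule and, added after seeing the data, gene names of either table. Python 3.11.15, numpy 2.4.6, pandas 2.3.3 and matplotlib 3.10.9 were used.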

Additional observations from a re-analysis of the deposited data

How the results depend on the processing

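No paired analysis was possible because there was a single library on each side, and no replicate could be left out. Of the 8 hosts only Mir17hg was 2-fold apart as reported, and it stayed so under each alternative of its ratio, at 1.67 with annotated transcripts only. Mir155hg turned to 0.56 with FPKM times length, for the reason that its longer intronic transcript is the one higher with CIA. Annotated transcripts only made Mir142hg the 1 host counted as 2-fold lower, and no ratio is given for it there because it is listed at 0 in the CIA library. Of the other microRNA hosts, a pseudocount of 1 FPKM left 1 higher and 1 lower, the filter at 1 FPKM left 2 higher and 1 lower, the 4-fold rule 0 higher and 1 lower, and centring on the median 1 higher. Over all gene names, 396 higher and 131 lower as reported, the pseudocount of 1 FPKM gave 80 higher and 36 lower, centring 204 and 202, dropping the filter 783 and 334, raising it to 1 FPKM 240 and 87, and the 4-fold rule 89 and 38. Gene names of either table, added after seeing the data, gave 889 and 556 of 7540. Centring brings the split near even by construction. Depth limits every value by an unknown amount.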

Other observations

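Non-coding transcripts within 50 kb of the hosts that reached 1 FPKM in either library are given here as values. Near Mir17hg, the assembled intergenic transcript MSTRG.12825.1, 3363 bases downstream, stood at 1.72 FPKM with CIA and 2.15 FPKM in the healthy library (log2 ratio -0.31, beside 2.62 for the host). Inside the Dleu2 span, Gm27010 stood at 13.0 against 13.8 FPKM, Gm37420 at 10.1 against 9.45 FPKM and Gm27017 (plus strand, opposite to Dleu2) at 3.72 against 3.37 FPKM. In the same span the Gm37472 transcripts stood at 2.32 against 1.51 FPKM in the annotated and 7.96 against 5.42 FPKM in the assembled form, higher with CIA while Dleu2 itself was lower. MSTRG.12307.1, in an intron of Spryd7 47219 bases from Dleu2 and 269 bases long, stood at 0.183 against 2.05 FPKM (log2 ratio -2.92).

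Near Mir142hg, Gm11505, which lies antisense to the myeloperoxidase gene Mpo at a distance of 38514 bases, was listed at 0 with CIA and at 1.62 FPKM in the healthy library. Between them, MSTRG.6627.1 in an intron of Tspoap1 stood at 1.99 against 2.05 FPKM. Near Mir155hg, MSTRG.15394.1 in an intron of Mrpl39 stood at 1.95 against 1.78 FPKM. Near Mir670hg, MSTRG.21769.1 and MSTRG.21770.1 in introns of Ttc17 stood at 2.14 against 1.27 and at 1.97 against 1.78 FPKM. Near Mir99ahg none of 14 transcripts reached 1 FPKM in either library.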
